A study of Mus musculus with 10 samples.

Results

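The genes of 9 transcriptional corepressors were measured in newborn mouse hindbrain and rostral spinal cord with and without the transcription factor Nkx2.2. They encode the Groucho proteins Tle1, Tle2, Tle3 and Tle4, the histone deacetylases Hdac1 and Hdac2, their scaffold Sin3a, and the DNA methyltransferases Dnmt1 and Dnmt3a. Members were taken as every probe set whose platform gene symbol field held 1 of the 9 names, which gave 25 of the 45037 probe sets that are not array controls, with all 9 genes present and 0 fields of several symbols. RNA came from pons, medulla and rostral spinal cord of C57BL/6 mice perfused at postnatal day 1.5 to 2, cut from sections of 20 µm. The wild-type group held 5 mice (replicates 14, 15, 16, 18 and 21), the Nkx2.2-/- group held 5 (replicates 11, 12, 22, 29 and 43), and each mouse had 1 array. The genotypes are described as littermates, but the labels do not say which mice shared a litter. The comparison asks which transcripts differ in Nkx2.2-/- tissue. How the mutant allele was made, and the sex of each mouse, are not given in the sources used here.

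As background, Groucho proteins bind no DNA themselves. They are brought to a gene by factors that carry a short Groucho-binding peptide, and Nkx2.2 is such a factor through its TN domain, as are several other homeodomain proteins of the ventral neural tube. Groucho in turn recruits Hdac1, which removes acetyl groups from histones, and Sin3a holds Hdac1 and Hdac2 in a further repressor complex. Dnmt1 copies CpG methylation to new DNA strands and Dnmt3a sets new methylation. Nkx2.2 has been described in a complex with Tle3, Hdac1 and Dnmt3a in pancreatic beta cells, and Hdac1 and Hdac2 are known to act in oligodendrocyte differentiation.

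None of the 25 corepressor probe sets passed the test between genotypes, while the Nkx2-2 transcript fell. The deposited values are log2 RMA expression values, in which a difference of 1 is a doubling, and each level below is on that scale. Changes are Nkx2.2-/- minus wild type. Nkx2-2 itself read 6.88, 6.47, 6.49, 6.51 and 6.42 in wild-type replicates 14, 15, 16, 18 and 21 and 4.73, 4.34, 4.24, 4.58 and 4.64 in Nkx2.2-/- replicates 11, 12, 22, 29 and 43. Its signal fell by 2.05 in log2 units (SE 0.111 by limma, with Benjamini-Hochberg adjustment over all probe sets, adjusted p = 7.23e-05), while 0 of 25 corepressor probe sets passed that test. Of all probe sets, 0.0511% passed. At an unadjusted limma p under 0.05 the corepressors had 1 of 25 probe sets, against 3.43% of all. In 0 of 25 did the genotypes separate without overlap, against 0.757% of all. The lowest adjusted p among the 25 was 0.9997 (limma). The median change was -0.01 over the 25 probe sets and 0.001 over all 45037, and the median size of a change without its sign was 0.0358 against 0.0377. By sign, 14 were lower and 11 higher.

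The intervals bound what could have been missed. In 24 of 25 corepressor probe sets the 95% limma interval of the change lay within 0.5 either side of 0 on the log2 scale, as it did for 97% of all probe sets. The exception was the second Hdac2 probe set, described with that gene. These are averages over whole tissue, in which fewer cells of a type and less RNA per cell cannot be told apart, and RMA compresses differences between dim probe sets.

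**Figure D1:**
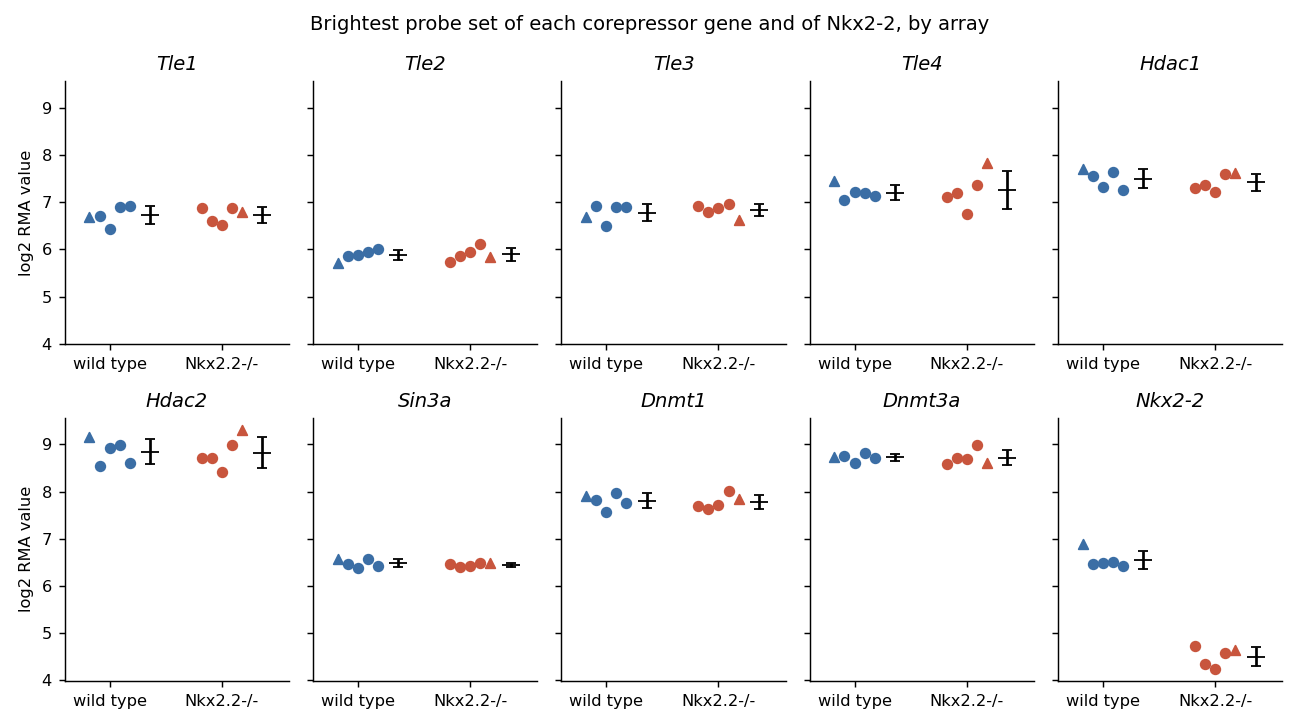
The log2 RMA value of the brightest probe set is plotted by genotype for each of the 9 corepressor genes and for Nkx2-2, with 1 point per array and bars for mean ± SD (n = 5). Triangles mark wild-type replicate 14 and Nkx2.2-/- replicate 43, whose Gapdh 5 prime control was dim. Values of different panels come from different probes and are not compared. The genotypes overlap in every corepressor panel and separate for Nkx2-2.

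Each gene was described by its brightest probe set, the one of highest mean over the 10 arrays. The Groucho genes are given first. Tle1, which encodes a full-length Groucho protein, read 6.68, 6.71, 6.43, 6.89 and 6.91 in wild-type replicates 14, 15, 16, 18 and 21 and 6.87, 6.59, 6.51, 6.88 and 6.80 in Nkx2.2-/- replicates 11, 12, 22, 29 and 43 (probe set 1422751_at). The groups covered nearly the same range, and wild-type replicate 16 was the lowest array. Group means of 6.72 ± 0.195 and 6.73 ± 0.170 (SD, n = 5 each) differed by 0.0066 in log2 units (95% interval -0.22 to 0.23, limma adjusted p = 0.9997). The second Tle1 probe set had a log2 change of 0.04.

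Tle2, the Groucho gene with 1 probe set (1436244_a_at), read 5.71, 5.85, 5.88, 5.95 and 6.00 in the wild-type mice and 5.74, 5.85, 5.94, 6.11 and 5.83 in the Nkx2.2-/- mice, in the same order of replicates. Here and below that order is 14, 15, 16, 18, 21 for wild type and 11, 12, 22, 29, 43 for Nkx2.2-/-. The highest array was Nkx2.2-/- replicate 29 and the lowest wild-type replicate 14. Its change was 0.02 in log2 units (95% interval -0.15 to 0.18, limma adjusted p = 0.9997).

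Tle3 encodes the Groucho protein that was found with Nkx2.2 in beta cells. Its brightest probe set, 1419655_at, read 6.68, 6.91, 6.49, 6.90 and 6.90 in wild type and 6.91, 6.79, 6.87, 6.95 and 6.63 in Nkx2.2-/- mice. Wild-type replicate 16 was again lowest, and 4 of 5 arrays of the Nkx2.2-/- group lay between 6.79 and 6.95. Nkx2.2-/- and wild-type means differed by 0.05 in log2 units (95% interval -0.15 to 0.25, limma adjusted p = 0.9997). A dimmer Tle3 probe set, 1458512_at, was the 1 of 25 with an unadjusted limma p under 0.05. It read 4.97, 5.04, 5.14, 5.05 and 5.17 in wild type and 5.10, 4.96, 4.90, 4.91 and 4.83 in Nkx2.2-/- mice. The groups overlapped through Nkx2.2-/- replicate 11 and wild-type replicate 14. Its log2 change was -0.14 (SE 0.0575, 95% interval -0.26 to -0.01, exact two-sided permutation p = 0.0476, limma adjusted p = 0.9997). The wild-type mean of that probe set lay above 49.3% of all probe sets, that is, near the middle of the array, against 82.4% for the brightest. The other Tle3 probe sets had log2 changes of -0.04 and 0.03, so the 4 probe sets of this gene did not share a sign.

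Tle4 encodes the Groucho protein also called Grg4. It read 7.44, 7.04, 7.20, 7.20 and 7.12 in wild type and 7.12, 7.19, 6.74, 7.36 and 7.84 in Nkx2.2-/- mice (probe set 1450853_at). The Nkx2.2-/- group held both the highest and the lowest array, replicates 43 and 22, and its SD was 0.400 against 0.152 in wild type. For Tle4 the change was 0.05 in log2 units (95% interval -0.32 to 0.42, limma adjusted p = 0.9997), or a fold between 0.801 and 1.33, the widest interval of the Groucho genes. The 2 dimmer Tle4 probe sets had log2 changes of 0.04 and 0.10.

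**Figure D2:**
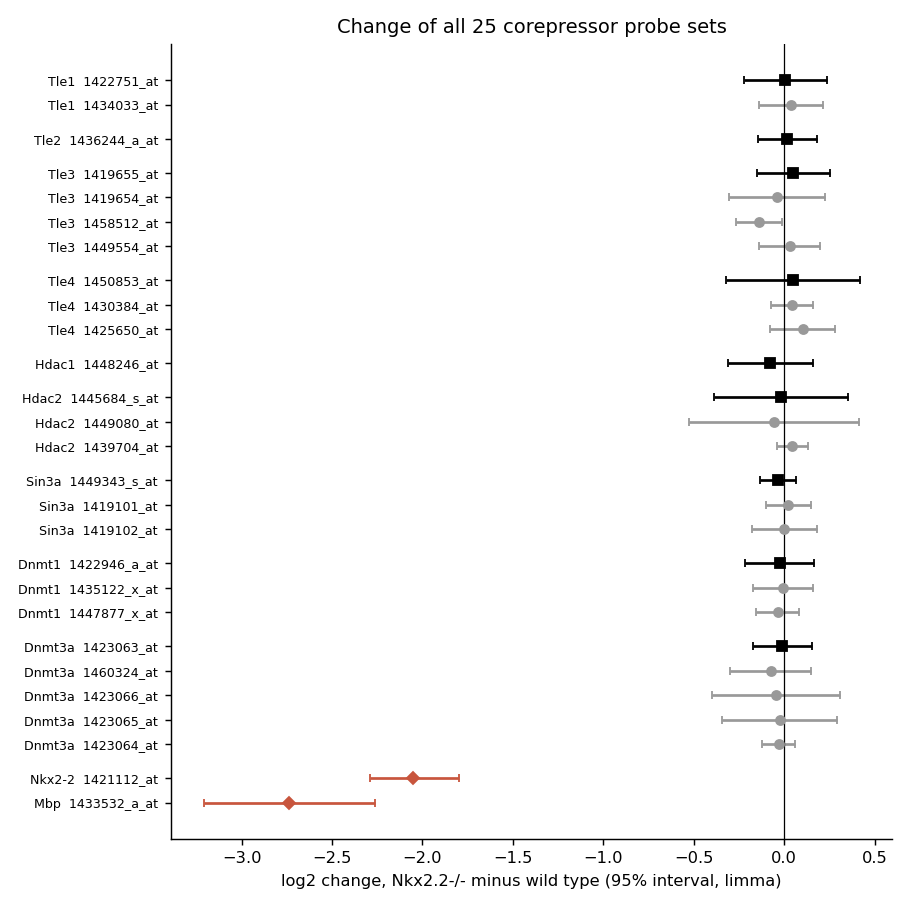
The log2 change, Nkx2.2-/- minus wild type, is shown with its 95% limma interval for each of the 25 corepressor probe sets, black squares marking the brightest of a gene and grey circles the others. Red diamonds show Nkx2-2 (-2.05) and Mbp (-2.74) on the same axis. All corepressor changes lie between -0.14 and 0.10.

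Hdac1, the deacetylase recruited by Groucho, had 1 probe set (1448246_at). It read 7.71, 7.56, 7.33, 7.64 and 7.25 in wild type and 7.30, 7.37, 7.21, 7.60 and 7.62 in Nkx2.2-/- mice. The groups overlapped over most of their range, with Nkx2.2-/- replicate 22 lowest and wild-type replicate 14 highest. Group means of 7.50 ± 0.199 and 7.42 ± 0.181 (SD, n = 5 each) differed by -0.08 in log2 units (SE 0.108, 95% interval -0.31 to 0.16, limma adjusted p = 0.9997). Among brightest probe sets this was the change farthest from 0. An Hdac1 pseudogene is listed in the RefSeq gene table, and whether its transcripts reach this probe set was not tested.

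Hdac2, the close relative of Hdac1, read 9.16, 8.54, 8.92, 8.99 and 8.60 in wild type and 8.71, 8.71, 8.41, 8.99 and 9.31 in Nkx2.2-/- mice in its brightest probe set, 1445684_s_at. Its highest arrays were wild-type replicate 14 and Nkx2.2-/- replicate 43, 1 of each genotype. The genotypes differed by -0.02 in log2 units (95% interval -0.39 to 0.35, limma adjusted p = 0.9997). The second probe set, 1449080_at, followed the same arrays, at 8.12, 7.59, 8.06, 8.05 and 7.66 in wild type and 7.57, 7.74, 7.29, 8.04 and 8.56 in Nkx2.2-/- mice. For this probe set the change was -0.06 and the interval -0.52 to 0.41, the only interval of the 25 that passed 0.5, so of all members Hdac2 was bounded least closely there. The third probe set was dim, above 23.3% of probe sets in wild type, and had a log2 change of 0.05.

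Sin3a, the scaffold of the Sin3 complex, read 6.57, 6.47, 6.38, 6.57 and 6.42 in wild type and 6.46, 6.41, 6.41, 6.48 and 6.48 in Nkx2.2-/- mice (probe set 1449343_s_at). All 5 Nkx2.2-/- arrays lay inside the wild-type range. For Sin3a the change was -0.04 in log2 units (SE 0.0452, 95% interval -0.14 to 0.06, limma adjusted p = 0.9997). This was the narrowest interval among the brightest probe sets and bounds the fold between 0.910 and 1.04. The dimmer Sin3a probe sets had log2 changes of 0.02 and 0.001.

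Dnmt1, the maintenance methyltransferase, read 7.91, 7.82, 7.57, 7.97 and 7.76 in wild type and 7.70, 7.63, 7.72, 8.00 and 7.84 in Nkx2.2-/- mice (probe set 1422946_a_at). The ranges again coincided, with wild-type replicate 16 lowest and Nkx2.2-/- replicate 29 highest. For Dnmt1 the genotype difference was -0.03 in log2 units (95% interval -0.22 to 0.16, limma adjusted p = 0.9997). The 2 other Dnmt1 probe sets had log2 changes of -0.01 and -0.03, so all 3 probe sets were within 0.04 of 0.

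Dnmt3a, the methyltransferase reported with Nkx2.2 in beta cells, read 8.73, 8.75, 8.60, 8.81 and 8.72 in wild type and 8.58, 8.70, 8.70, 8.98 and 8.60 in Nkx2.2-/- mice (probe set 1423063_at). The wild-type SD was 0.0764, the Nkx2.2-/- SD 0.160, and Nkx2.2-/- replicate 29 was the highest array. For Dnmt3a the genotype difference was -0.01 in log2 units (95% interval -0.17 to 0.15, limma adjusted p = 0.9997). Its 4 dimmer probe sets had log2 changes from -0.08 to -0.03. All 5 probe sets of this gene were lower by sign, against 49.2% of all probe sets, and 0 passed. They were read on the same arrays, so their signs are not independent. The brightest turned sign in 5 of 17 alternative settings. Wild-type replicate 15 was the highest array for 2 of the 5, at 7.40 in 1423066_at and 6.64 in 1423065_at, though not for the brightest.

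In wild-type tissue, the brightest probe set of every corepressor lay above the middle of the array. The wild-type mean was above 96.6% of all probe sets for Hdac2, 96.2% for Dnmt3a, 91.9% for Dnmt1, 89.6% for Hdac1, 86.9% for Tle4, 82.4% for Tle3, 81.6% for Tle1, 78.5% for Sin3a and 69.3% for Tle2. The wild-type mean of Nkx2-2 lay above 79.5%. Because the brightest probe set of a gene was ranked among all probe sets, a high rank is partly built in. The dimmer corepressor probe sets ranged from above 19.3% (Tle4, 1425650_at) to above 92.7% (Dnmt3a, 1460324_at). These ranks describe signal and not transcript number, since probes of different genes bind with different strength. Over all 10 arrays the median SD of the 9 brightest probe sets was 0.153, against 0.109 over the brightest probe sets of all 18193 genes.

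Arrays differed in the Gapdh controls, whose 3 prime to 5 prime difference is a common reading of RNA integrity. The 3 prime Gapdh control exceeded the 5 prime one by 2.13 in wild-type replicate 14 and by 3.78 in Nkx2.2-/- replicate 43, and lay between -0.32 and 0.13 on the other 8 arrays. Both arrays were above all others in 3 of 25 corepressor probe sets, against 10.3% of all probe sets. These were the brightest Hdac2 and Tle4 probe sets and the second one of Hdac2. Both were below all others in 3 of 25, against 8.76% of all. These were dimmer probe sets of Tle3 (1419654_at at 4.79 and 4.71, others from 5.12 to 5.32; and 1449554_at) and of Sin3a (1419101_at). Each count is 12% of the corepressor probe sets, near the share of all. The brightest Tle3 probe set had both arrays inside the range of the others (6.68 and 6.63, others from 6.49 to 6.95). The dimmer Tle4 probe sets did not have both arrays above all others. Without both arrays the log2 change of Tle4 was -0.04 and that of Tle1 -0.02. In that fit 0 of 25 corepressor probe sets passed, against 23 of all 45037 (limma).

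**Figure D3:**
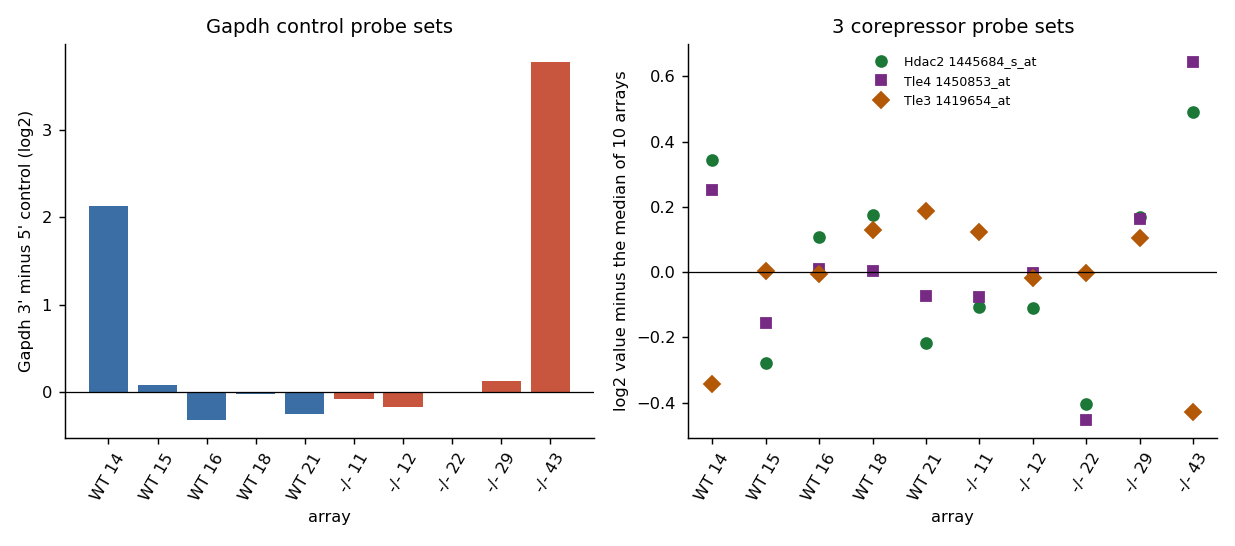
Left, bars give the 3 prime minus 5 prime Gapdh control difference (log2) of each array, wild type in blue and Nkx2.2-/- in red. Right, points give the log2 value of an Hdac2, a Tle4 and a Tle3 probe set on the same arrays, minus that probe set's median over 10 arrays. Hdac2 and Tle4 are highest, and this Tle3 probe set lowest, on the low-Gapdh arrays (Nkx2.2-/- replicate 43, wild-type replicate 14). They were picked to show that pattern, so it is no test. Of 25 corepressor probe sets, 3 had both arrays above all others and 3 had both below. The brightest Tle3 probe set, the dimmer Tle4 ones and the dim Hdac2 one had neither.

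Next to the 9 genes, 94 symbols of the wider corepressor machinery were listed, older names included, and 81 were measured. By the brightest probe set, 1 of 81 passed, Nkx2-2 itself, against 0.0605% of all genes (limma adjusted over all probe sets). At an unadjusted limma p under 0.05 there were 3 of 81, all lower and 1 of them Nkx2-2, against 3.69% of all genes. Since Nkx2-2 is the mutated gene, its calls are no finding about the wider machinery. By sign, 42 were lower and 39 higher, with a median change of -0.0034 beside -0.0042 over all genes. Of the other Groucho genes, Tle5, a short form without the WD repeats that bind target factors, had a log2 change of -0.09 and Tle6 of -0.04. In the Sin3 complex 15 genes were measured, with changes from -0.10 to 0.08, and 0 passed at either level. The 11 genes of the NuRD complex, a nucleosome remodeller with Hdac1 and Hdac2, ran from -0.19 to 0.10. The 9 of the CoREST complex, which joins the same deacetylases to a histone demethylase, ran from -0.14 to 0.11. The 5 of the NCoR complex, which carries Hdac3, ran from -0.01 to 0.06. In these 3 complexes 0 genes passed at either level.

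The other 2 of the 3 genes were Sirt2 and Uhrf1. Sirt2, a deacetylase abundant in oligodendrocytes, read 8.75, 8.44, 8.57, 8.33 and 8.40 in wild type and 7.94, 7.87, 7.86, 8.11 and 8.33 in Nkx2.2-/- mice. The groups separated by a small margin, wild-type replicate 18 at 8.332 against Nkx2.2-/- replicate 43 at 8.327. The highest array of each genotype was the low-Gapdh one, replicates 14 and 43, whose part in these values was not tested. The log2 change was -0.48 (SE 0.103, limma adjusted p = 0.618), with an exact two-sided permutation p of 0.00794, the smallest that 5 against 5 can give. Markers of myelin and mature oligodendrocytes moved with it: 6 of 10 measured passed, all lower (limma). Their mean level lay between 6.57 and 6.88 in wild type and between 5.85 and 6.05 in Nkx2.2-/- mice. Markers of oligodendrocyte precursors did not: of 8 measured, 0 passed, 3 were lower and 5 higher by sign, with a median change of 0.05. The part of either list in the Sirt2 value was not tested. The other 11 deacetylases outside the 9 corepressors had log2 changes between -0.10 and 0.08.

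Uhrf1 encodes the protein that brings Dnmt1 to newly copied DNA. It read 5.76, 5.83, 5.65, 6.85 and 5.81 in wild type and 6.05, 5.10, 5.23, 5.25 and 5.04 in Nkx2.2-/- mice. Wild-type replicate 18 and Nkx2.2-/- replicate 11 stood above the rest of their groups, and the groups overlapped through replicate 11. The log2 change was -0.64 (SE 0.247, exact two-sided permutation p = 0.0397), and it did not pass over all probe sets (limma adjusted p = 0.9997). Proliferation markers moved with Uhrf1. They were lower by sign in 15 of 15 measured, 0 passing the adjusted limma test and 10 at an unadjusted p under 0.05, with a mean level of 6.00 to 6.63 in wild type and 5.63 to 6.12 in Nkx2.2-/- mice, and the same replicates 18 and 11 were highest. Their part in the Uhrf1 value was not tested. For Dnmt1, the log2 change with the proliferation mean as a covariate was 0.03 (SE 0.122), against -0.03 (SE 0.0863) without it. That mean itself averaged 6.16 in wild type and 5.77 in Nkx2.2-/- mice, so the covariate and genotype are only partly separable. The other 9 measured DNA methylation genes, among them Dnmt3b and Tet1 to Tet3, had log2 changes between -0.05 and 0.12.

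Of 18 measured factors that recruit Groucho or deacetylases, Nkx2-2 passed and 17 did not (limma), with log2 changes from -0.69 for En2 to 0.13 for Olig2. The genes named here beside Nkx2-2 were chosen after their values were seen. Nkx6-1 and Nkx6-2, homeodomain repressors of the ventral neural tube, had log2 changes of 0.01 and -0.05, Hes1 and Hes5, effectors of Notch, of -0.04 and -0.19, and Tcf7l2, a Wnt effector, of -0.15. En2, a homeodomain factor of the midbrain and cerebellum, read 5.72, 5.28, 5.17, 6.73 and 6.09 in wild type and 6.57, 4.95, 4.80, 4.46 and 4.77 in Nkx2.2-/- mice. Wild-type replicate 18 and Nkx2.2-/- replicate 11 were highest in their groups, as they were in the mean of the cerebellar granule cell markers (6.89 and 6.70), and the groups overlapped. Its log2 change of -0.69 (SE 0.406) did not pass (limma adjusted p = 0.9997), and the part of those markers in it was not tested. En1 (-0.27) and Six3 (-0.23) followed. The median of the list was -0.05.

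**Figure D4:**
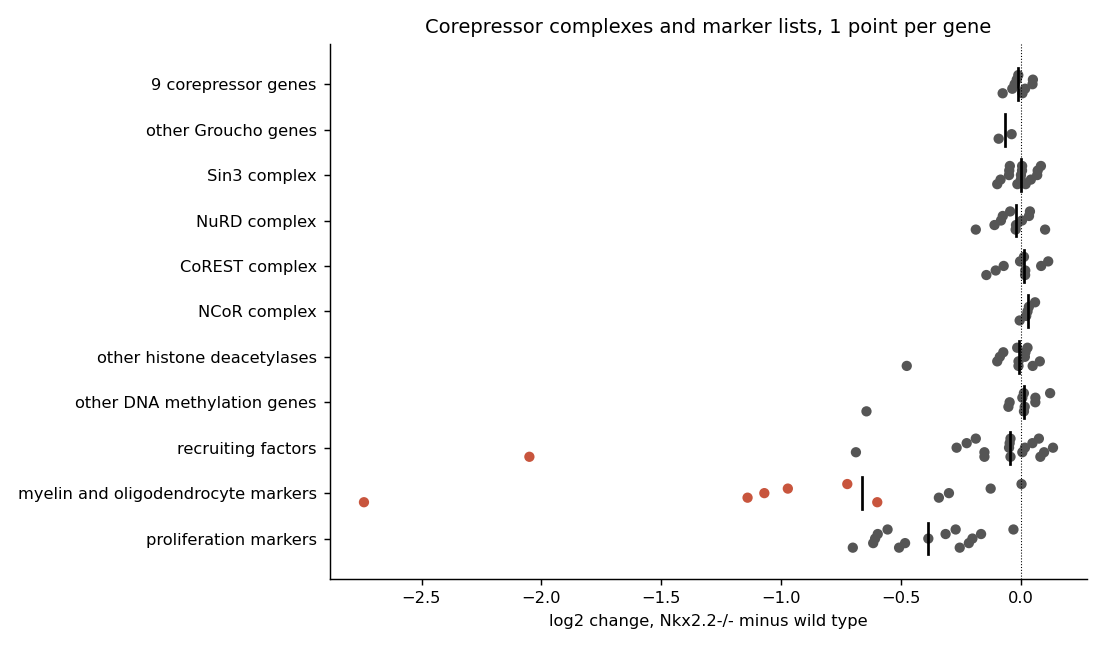
Each point is the log2 change, Nkx2.2-/- minus wild type, of 1 gene by its brightest probe set, grouped by list, with a bar at the list's median and red for a limma adjusted p under 0.05. The 9 corepressors and the Sin3, NuRD, CoREST and NCoR genes lie within 0.2 of 0. Sirt2 (-0.48), Uhrf1 (-0.64), En2 (-0.69) and Nkx2-2 (-2.05) lie apart in their lists, beside the lower myelin and proliferation markers.

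Whether corepressor levels followed the makeup of the dissected tissue was examined over the 10 arrays. The brightest probe set of each of the 9 genes was set against the mean level of proliferation markers, of cerebellar granule cell markers and of spinal Hox genes, giving 27 relations. The spinal Hox genes, which mark levels of the cord, were higher by sign in Nkx2.2-/- mice in 9 of 9 measured, 0 passing the adjusted limma test and 2 at an unadjusted p under 0.05 (Hoxc8 and Hoxd8). Their mean was 5.05 to 5.22 in wild type and 5.16 to 5.69 in Nkx2.2-/- mice. Hoxc8 read 4.69, 4.61, 4.58, 4.53 and 4.84 in wild type and 4.72, 4.82, 7.22, 6.96 and 6.17 in Nkx2.2-/- mice, so that replicates 22, 29 and 43 stood above all other arrays. The cerebellar markers were lower by sign in 8 of 9, 0 passing either level, with a mean of 6.08 to 6.89 in wild type and 6.05 to 6.70 in Nkx2.2-/- mice. After Benjamini-Hochberg adjustment 0 of 27 passed, by Pearson's r or Spearman's rho, and 1 of 27 had an unadjusted permutation p under 0.05 by each. That was Tle1 with the cerebellar markers (r = 0.685, two-sided permutation p = 0.0253, adjusted p = 0.683; rho = 0.697, permutation p = 0.0306, adjusted p = 0.826). Without the 2 arrays farthest from the median of the cerebellar score, wild-type replicate 18 and Nkx2.2-/- replicate 11, r was 0.64. Dnmt1, which acts at DNA replication, had r = 0.235 and rho = 0.0909 with the proliferation markers (permutation p = 0.525 and 0.811, adjusted p = 0.998 and 0.964), and r = -0.29 once the arrays farthest out in that score, wild-type 18 and Nkx2.2-/- 22, were omitted. With 5 arrays a genotype no relation was computed within genotypes. As to the dissection, the 10 measured hindbrain Hox genes ranged in wild type from above 11.7% of probe sets (Hoxb1) to above 94.7% (Hoxb5). The 7 measured forebrain markers ranged from above 5.62% (Tbr1, a cortical factor) to above 77.4% (Neurod6), so the lists overlapped.

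The 3 members that varied most between arrays were Tle4 and Hdac2, each with an SD of 0.286, and Hdac1, with 0.184. The genes whose level over the 10 arrays was most like Tle4 were Ugdh, Fbxo38 and Taf2 (Pearson's r = 0.993, 0.991 and 0.990; rho = 0.976, 0.903 and 0.952). For Hdac2 they were Dhx36, Dab1 and Ipo5 (r = 0.990, 0.977 and 0.977; rho = 0.952, 0.988 and 0.964). For Hdac1 they were Kti12, Atat1 and Ube4a (r = 0.973, 0.959 and 0.952; rho = 0.964, 0.927 and 0.988). These genes were picked for a high r among 18193, so the values are a description and carry no test. The arrays share the Gapdh differences described above. With those 2 low-Gapdh arrays left out, the r of Ugdh with Tle4 was 0.984 and that of Dhx36 with Hdac2 0.982.

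RefSeq promoter windows (build GRCm38.p6, 250 bases before to 50 after a start) were found for 8 of 9 genes, 14 windows in all, of which 2 of Dnmt3a overlap. They held a median of 28 CpG, the site that Dnmt1 and Dnmt3a methylate, against 7 over all 32851 windows. The range ran from 2 at the first Dnmt1 start to 47 at the second Dnmt3a start. The sequence GGGCGG, searched on both strands, was in 11 of 14 windows and in 35.66% of all. TNAAGTG, a core recognised by Nkx2-class homeodomain proteins, was searched on both strands too and was in 1 of 14 (7.14%), against 11.54% of all. A match describes letters only. 3 stretches are shown to make these differences visible: the 250 bases before a CpG-rich Tle4 start (chr19:14598184-14598433, minus strand, 24 CpG), the same before the CpG-poor Dnmt1 start (chr9:20959889-20960138, minus strand, 2 CpG), and the single TNAAGTG match, which begins 72 bases before the second Dnmt1 start (chr9:20953025-20953071, minus strand). Capitals mark CpG in the first 2 and the match in the last.
Tle4: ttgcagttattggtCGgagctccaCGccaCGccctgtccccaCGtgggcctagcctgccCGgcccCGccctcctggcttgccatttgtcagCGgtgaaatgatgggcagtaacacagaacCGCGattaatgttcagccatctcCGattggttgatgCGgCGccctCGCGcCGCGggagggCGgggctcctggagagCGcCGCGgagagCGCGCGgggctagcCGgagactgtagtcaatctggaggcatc
Dnmt1, first start: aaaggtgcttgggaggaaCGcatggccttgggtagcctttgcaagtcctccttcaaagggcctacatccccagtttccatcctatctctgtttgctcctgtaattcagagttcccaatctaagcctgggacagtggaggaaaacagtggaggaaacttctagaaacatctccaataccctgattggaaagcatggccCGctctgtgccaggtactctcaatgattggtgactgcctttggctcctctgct
Dnmt1, second start: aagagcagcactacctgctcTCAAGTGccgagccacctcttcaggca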

How the data were processed

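Total RNA of 10 mice was measured on 1 expression array each, and groups were taken from the sample titles. The deposited values are log2 expression values that the authors computed by RMA (version not stated in the labels), according to the submitters' processing notes. That method corrects background, brings arrays to 1 distribution and summarises probes, so a shift shared by most genes would not show. Array medians ran from 5.07 to 5.12, and the number of arrays limits the precision. Of 45101 probe sets, 64 controls were left out, and no filter on dim signals was set. Symbols came from the platform's annotation, in which 34945 probe sets had 1 symbol, 932 several and 9160 were unnamed here. Every probe set was fitted with lmFit and eBayes of limma 3.58.1 (R 4.3.3), without covariates, and p-values were adjusted over 45037 probe sets by Benjamini-Hochberg at 0.05. The fit was checked on simulated data. Litter was not used, and where mice share a litter the p-values measure only the spread between these mice. Correlations used 100000 permutations. Members, gene lists and alternatives were chosen with earlier results of these data known. By rule, each member's brightest probe set is given in full, others where the unadjusted p was under 0.05, and up to 3 such genes per list. Sequences are RefSeq's. Python 3.11.15, pandas 2.3.3 and matplotlib 3.10.9 served for preparation and figures.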

Additional observations from a re-analysis of the deposited data

Results flagged for a closer look

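Over the 25 corepressor probe sets, 50 groups of 5 arrays of 1 genotype were examined. In 3 of these groups, 1 array stood apart from the other 4 by Dixon's 95% criterion, a gap of over 0.71 of the group's range. Chance gives about 1 such group in 20. For the second Tle1 probe set, 1434033_at, Nkx2.2-/- replicate 43 was highest at 6.30, with the next array at 6.18. For the Tle3 probe set 1419654_at the same array was lowest at 4.71, with the next at 5.12. For the Dnmt1 probe set 1435122_x_at, Nkx2.2-/- replicate 12 was lowest at 7.23, with the next at 7.40. Replicate 43 is the array with the largest Gapdh difference, 3.78, whose part in these values was not tested.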

How the results depend on the processing

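No paired analysis was run, because the sample labels give neither litters nor pairs of mice. Under every alternative run, 0 corepressor probe sets passed, 0 of 19 once the dimmer probe sets were left out, 0 of 9 with 1 probe set per gene, 0 of 25 at a threshold of 0.1, and 0 of 25 with the proliferation mean as a covariate (limma). That last count was added after seeing the data. In these settings the calls over all were 20 of 22519, 11 of 18193, 26 of 45037 and 16 of 45037. A count of 0 among 9 to 25 member probe sets is near those shares and is no result about the members. The lowest adjusted p of a brightest member probe set over its 17 alternatives was 0.801, for Hdac1. Over all probe sets the count of calls, 23, was 11 with 1 probe set per gene, where 18193 were tested, 16 with the proliferation covariate and otherwise 20 to 31, or 18 to 23 without any 1 array. Changes this close to 0 turned sign easily: with quantile normalization Dnmt1 was 0.0027, Dnmt3a 0.0239 and Hdac2 0.0238; with array weights Tle1 was -0.0649 and Tle2 -0.0161; with both low-Gapdh arrays left out Dnmt3a was 0.0192, Tle1 -0.0198, Tle2 -0.0084 and Tle4 -0.0378; with the proliferation covariate Dnmt1 was 0.0328, Hdac2 0.0504, Sin3a 0.0182 and Tle2 -0.0272. The cause was not tested. Without any 1 array the log2 change ran from -0.0849 to 0.0149 for Dnmt1, -0.0777 to 0.0224 for Dnmt3a, -0.138 to 0.0853 for Hdac2, -0.0611 to -0.0139 for Sin3a, -0.0678 to 0.0622 for Tle1, -0.0368 to 0.0573 for Tle2, -0.0213 to 0.10 for Tle3 and -0.0988 to 0.176 for Tle4. Hdac1 stayed below 0 in all 17, from -0.138 to -0.0228. Without the 2 farthest arrays 0 of 27 correlations passed (lowest exact permutation adjusted p = 0.859).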
